A study of Mus musculus with 24 samples.

Results

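The contractile genes described here are 10 sarcomere isoform genes of the mouse heart: the myosin heavy chains Myh6, Myh7 and Myh7b, the troponin subunits Tnnt2, Tnnt3, Tnni3, Tnni1 and Tnnc1, and the sarcomeric actins Actc1 and Acta1. They were taken by gene symbol from a table of 46078 genes counted in 24 hearts. The table gave the symbols of 9 of them; Acta1 carried no symbol there and was matched by its Ensembl identifier, ENSMUSG00000031972. Each library came from the ventricular apex of 1 male C57BL/6 mouse aged 10 weeks, in a study of heart injury at day 5. There were 4 groups of 6 mice. DTR_PYR mice had injury mediated by diphtheria toxin and received pyridostigmine, which blocks the enzymes that break down acetylcholine. DTR_PBS mice had the same injury and received the vehicle, phosphate-buffered saline. WT_PYR mice were wild type, had no toxin and received pyridostigmine, and WT_PBS mice were wild type, had no toxin and received the vehicle. DTR denotes the diphtheria toxin receptor. Receptor and toxin went together, so their contributions cannot be told apart, and the labels do not say which cells carried the receptor. All 4 groups shared strain, sex and age.

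Contraction in the heart comes from myosin motors of the thick filament pulling on actin of the thin filament, and the troponin complex on the thin filament makes this depend on calcium. The mouse ventricle switches its isoforms around birth: Myh7 gives way to Myh6, Tnni1 gives way to Tnni3, and Acta1 declines relative to Actc1. In loaded or injured rodent hearts a partial return of Myh7 and Acta1 is a known sign of stress, often called the fetal gene programme. Tnnt3 is the fast skeletal form of troponin T and not a fetal cardiac form, so its ratio to Tnnt2 is a ratio of skeletal to cardiac type rather than of age.

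Total counts ran from 1.88 M to 37.8 M per library. The 10 genes took 4.89 ± 0.813% of all counts in DTR_PYR hearts, 3.65 ± 1.27% in DTR_PBS hearts, 6.03 ± 0.360% in WT_PYR hearts and 5.47 ± 0.639% in WT_PBS hearts (SD, n = 6 each). On the first principal component of all tested genes, which held 44.2% of the variance, all 6 DTR_PBS libraries and DTR_PYR libraries 1 to 3 lay between 30.3 and 114, and the 12 WT libraries lay between -57.2 and -35.1. DTR_PYR libraries 4, 5 and 6 lay apart from their group, at -35.4, -25.6 and -20.9. Hbegf, the mouse counterpart of the human gene for the toxin receptor, had 19.3 to 25.8 CPM in those 3 libraries, 118 to 172 CPM in DTR_PYR 1 to 3, 105 to 167 CPM in DTR_PBS hearts and 18.3 to 26.8 CPM in the 12 WT hearts. CPM are counts scaled to the same library size, in counts per M. For part of the genes and ratios, results that rest on DTR_PYR are therefore also given without libraries 4, 5 and 6. Fold changes of the gene lists are given with all libraries only.

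Markers of the ventricular cardiomyocyte (Myl2, Myl3, Pln, Ckm and Mb) were present in every library. In DTR_PBS against WT_PBS 5 of 5 fell, where 42.9% of all tested genes were called. In DTR_PYR against WT_PYR only Myl2 of the 5 fell, where 12.2% of all tested genes were called. The summed level of the 5 markers was 9402 to 27062 CPM in DTR_PYR hearts, 5890 to 18917 CPM in DTR_PBS hearts, 30624 to 41729 CPM in WT_PYR hearts and 30061 to 36460 CPM in WT_PBS hearts. Myl2 stood at 2615, 1788 and 3024 CPM in DTR_PYR 1 to 3 and at 3333, 3214 and 2795 CPM in DTR_PYR 4 to 6. WT_PYR hearts had 6854 to 9610 CPM of Myl2. Macrophage markers (5 of 5) and fibroblast markers (4 of 5) rose and endothelial markers (4 of 5) fell in the injured groups against their WT groups, with and without the drug, beside the same shares of all genes. Summed macrophage markers were at 387, 904 and 281 CPM in DTR_PYR 1 to 3. In DTR_PYR 4 to 6 they were at 130, 125 and 128 CPM, inside the WT_PYR range of 77.5 to 134 CPM. Summed fibroblast markers were at 3094, 5800 and 2251 CPM in DTR_PYR 1 to 3 and at 982, 1221 and 1022 CPM in DTR_PYR 4 to 6. WT_PYR hearts had 590 to 992 CPM of them. In bulk tissue, fewer cardiomyocytes and less RNA per cardiomyocyte cannot be told apart. The part of these shifts in the levels below was not tested. A ratio between a pair of genes within a library does not depend on library scaling. The part of cell composition in the ratios was not tested either.

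**Figure D1:**
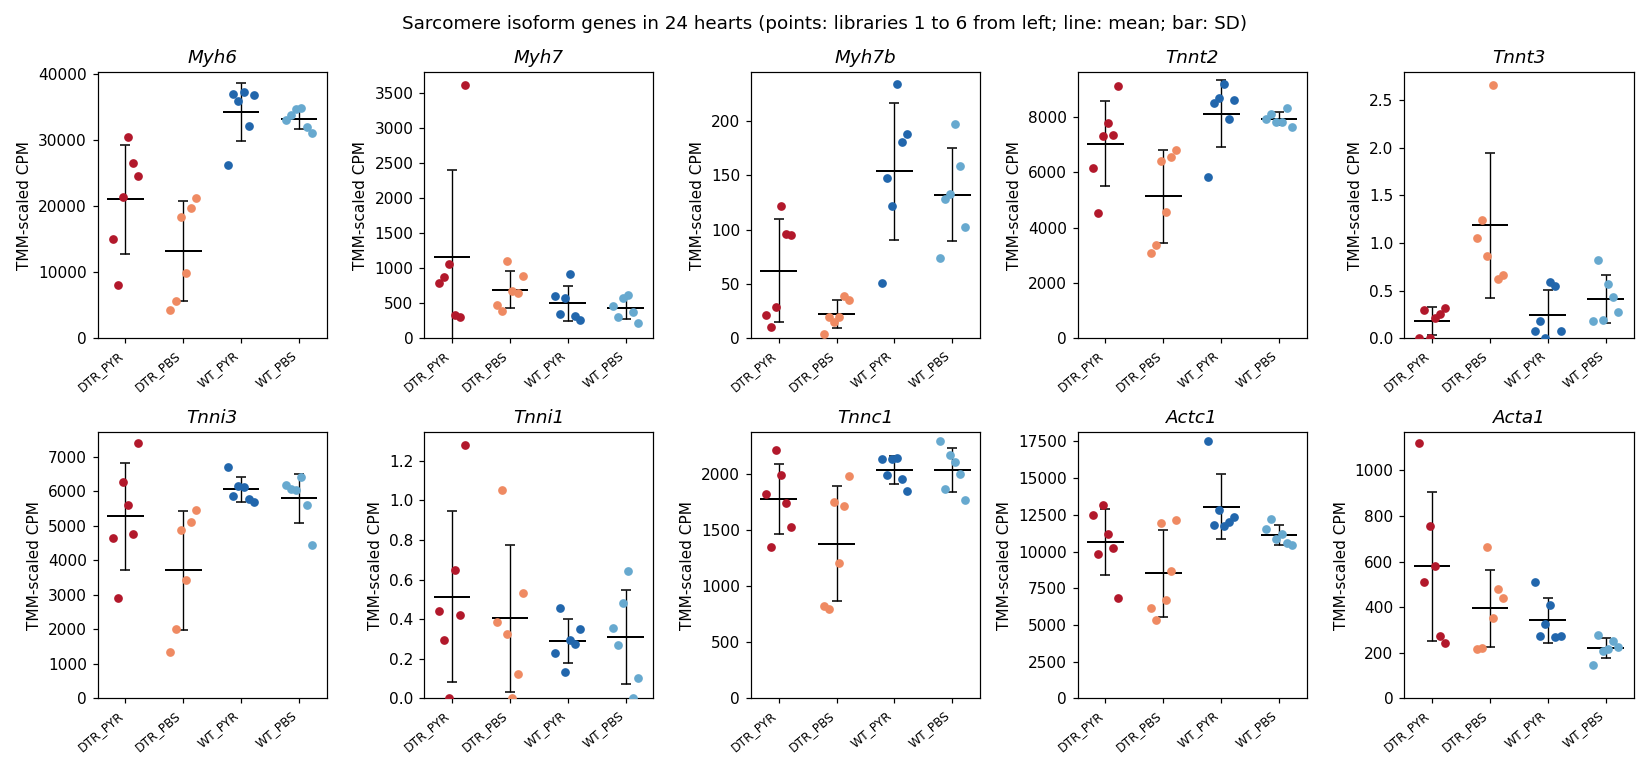
TMM-scaled CPM (y axis, from 0) of the 10 genes in each library, by group (x axis). Points are libraries 1 to 6 from left to right, lines are group means and bars are SD. Myh6 and Myh7b of every DTR_PBS heart lie below every WT_PBS heart, Myh7 of DTR_PYR 6 stands at 3614 CPM, and Tnnt3 and Tnni1 stay below 3 CPM throughout.

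In injured hearts without drug, Myh6, Myh7b, Tnnt2 and Tnnc1 fell in DTR_PBS hearts against WT_PBS hearts, and Acta1 and Tnnt3 rose. Myh7, Tnni3 and Actc1 did not pass the test. Of the 9 genes that passed the filter on low counts, 2 rose and 4 fell at an adjusted p under 0.05, where 42.9% of all 15456 tested genes were called, 21.3% up and 21.6% down. Under scaling by total counts 4 of the 9 were called, against 48.3% of all tested genes. The median log2 fold change of the 9 was -0.56, against 0.01 over all tested genes. In 3 genes, Myh6, Myh7b and Tnnt2, no DTR_PBS library overlapped a WT_PBS library, which held for 22.2% of all tested genes (11.2% higher and 11% lower in DTR_PBS). Tnni1 did not pass the filter of 0.5 CPM in at least 6 libraries. Tnnt3 passed it with 10 libraries, 6 of them DTR_PBS, so the filter itself favoured a high DTR_PBS value. Of the other 8 genes, 5 were called.

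Under pyridostigmine, no gene of the set was called in injured hearts. Of the 6 genes called without drug, 5 had a value of the same sign and Tnnt3 did not. In DTR_PYR against WT_PYR, 0 of 9 passed the edgeR test, against 12.2% of all tested genes, 8.06% up and 4.17% down. None of the 9 had groups without overlap, against 5.36% of all tested genes, 2.19% higher and 3.18% lower. Unadjusted p was under 0.05 for 4 of them, Myh6, Myh7, Myh7b and Acta1, and for 4562 of all 15456 tested genes. A DESeq2 Wald test called 1, Myh7, against 17.1% of all genes. The median of the 9 was -0.20, against 0.04 over all tested genes. Without DTR_PYR libraries 4, 5 and 6, an alternative chosen after seeing the data, 33% of all tested genes were called and 3 of the set: Myh6 (log2 fold change -1.21, adjusted p = 0.0282), Myh7b (-2.95, adjusted p = 0.000288) and Acta1 (1.21, adjusted p = 0.00279). Leaving out DTR_PYR 4 gave 2 calls (17.6% of all genes), leaving out DTR_PYR 5 gave 2 (16.1%) and leaving out DTR_PYR 6 gave 1 (15.4%), so these counts lie near the share of all genes.

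**Figure D2:**
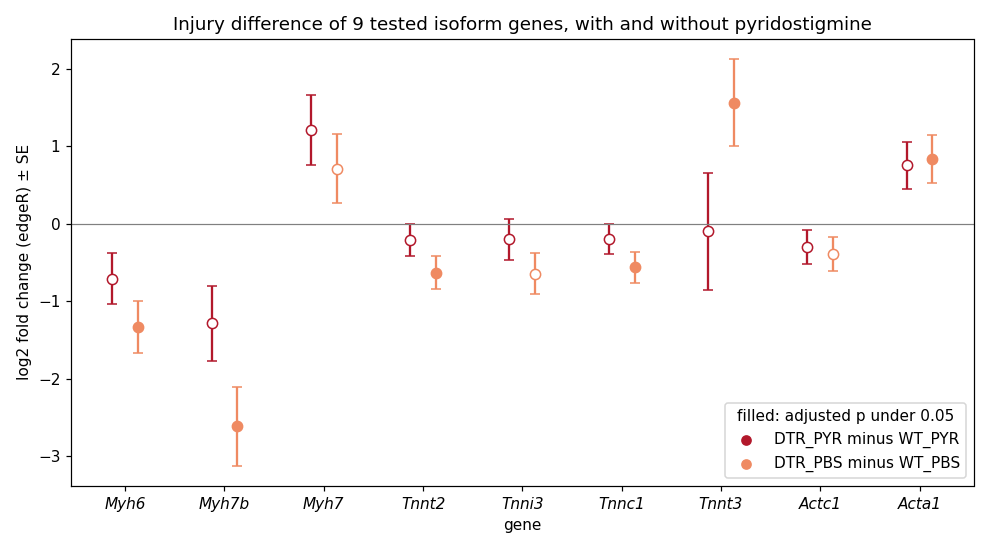
Log2 fold change with its SE (y axis) of the 9 tested genes (x axis) in injured against uninjured hearts, with pyridostigmine (DTR_PYR minus WT_PYR) and without (DTR_PBS minus WT_PBS). Filled points have an adjusted p under 0.05. Myh7b shows the lowest values of the 9 in both comparisons, -1.28 and -2.61, and Myh7 and Acta1 lie above 0 in both.

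Myh6 encodes the fast alpha myosin heavy chain, the main motor of the adult mouse ventricle (chromosome 14, 54941981 to 54966927, minus strand; coordinates are GRCm38). It had 8118, 22978 and 30462 CPM as lowest, median and highest value in DTR_PYR hearts, 4290, 14105 and 21230 CPM in DTR_PBS hearts, 26208, 36404 and 37253 CPM in WT_PYR hearts and 30998, 33386 and 34823 CPM in WT_PBS hearts. Every DTR_PBS heart was below every WT_PBS heart, and only DTR_PYR 4 and 5 reached into the WT_PYR range. The log2 fold change was -1.33 (SE 0.34, adjusted p = 0.00263) in DTR_PBS against WT_PBS and -0.70 (SE 0.33, adjusted p = 0.160) in DTR_PYR against WT_PYR. Its spread differed greatly between groups: the SD was 39.0% of the mean in DTR_PYR hearts, 57.0% in DTR_PBS hearts, 12.8% in WT_PYR hearts and 4.58% in WT_PBS hearts. The lowest values came from DTR_PBS 1 and 2, which also held the highest fibroblast marker sums of DTR_PBS, 5390 and 4664 CPM.

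Myh7 encodes the slow beta myosin heavy chain of the fetal ventricle and lies next to Myh6 (chromosome 14, 54970688 to 54994634, minus strand). It had 303, 834 and 3614 CPM as lowest, median and highest value in DTR_PYR hearts, 389, 662 and 1101 CPM in DTR_PBS hearts, 254, 462 and 919 CPM in WT_PYR hearts and 219, 415 and 614 CPM in WT_PBS hearts. All groups overlapped, and the difference did not pass the test in DTR_PBS against WT_PBS (log2 fold change 0.71, SE 0.45, adjusted p = 0.207) or in DTR_PYR against WT_PYR (1.21, SE 0.45, adjusted p = 0.0733). Within DTR_PYR, library 6 had 3614 CPM where the next highest, library 3, had 1058 CPM. That heart combined the highest Myh7 of all 24 with a Myh6 of 24553 CPM, and libraries 4 and 5, which lay beside it on the first principal component, had the lowest Myh7 of the group, 335 and 303 CPM. Without library 6 the Myh7 difference of DTR_PYR from WT_PYR was 0.42 (adjusted p = 0.437), and without library 4 or library 5 it passed (1.41, adjusted p = 0.0283, and 1.41, adjusted p = 0.0278). Against DTR_PBS, the Myh7 difference of DTR_PYR was 0.74 (SE 0.45, adjusted p = 0.353) with library 6 and -0.047 without it.

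Myh7b, a slow-type myosin gene present at low level in heart (chromosome 2, 155611212 to 155634307, plus strand), had the largest fall of the 10 genes in injured hearts without drug. It had 10.1, 61.9 and 121 CPM as lowest, median and highest value in DTR_PYR hearts, 3.86, 19.3 and 38.6 CPM in DTR_PBS hearts, 51.1, 164 and 234 CPM in WT_PYR hearts and 74.0, 131 and 198 CPM in WT_PBS hearts. No DTR_PBS heart reached the WT_PBS range. The DTR_PYR hearts lay in separate places: libraries 1, 2 and 3 had 21.6, 10.1 and 28.5 CPM, and libraries 4, 5 and 6 had 121, 96.5 and 95.3 CPM, inside the WT_PYR range. The log2 fold change was -2.61 (SE 0.51, adjusted p = 0.000273) in DTR_PBS against WT_PBS and -1.28 (SE 0.48, adjusted p = 0.0763) in DTR_PYR against WT_PYR. In DTR_PYR against DTR_PBS it was 1.54 (SE 0.49, unadjusted p = 0.00439, adjusted p = 0.137), and -0.12 without DTR_PYR 4, 5 and 6.

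The 3 myosin genes each carry a microRNA in an intron, a known set named for its myosin hosts. Their mature strands are shown because the seed groups them across the genes; capitals mark bases 2 to 8, the seed, and the sequences are those of RefSeq on GRCm38.p6.
mmu-miR-208a-3p: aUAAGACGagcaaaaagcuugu
mmu-miR-208b-3p: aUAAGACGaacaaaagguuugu
mmu-miR-499-5p: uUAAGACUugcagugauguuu
The first lies in Myh6 (chr14:54949072-54949093, minus strand), the second in Myh7 (chr14:54975710-54975731, minus strand) and the third in Myh7b (chr2:155622893-155622913, plus strand). The 208a and 208b strands have the same seed, and the seed of 499 is not identical to it. Polyadenylated libraries do not measure mature microRNAs, so only their host genes have values here: in DTR_PBS hearts the hosts Myh6 and Myh7b fell and Myh7 did not pass the test.

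Myh6 and Myh7 are near-identical over part of their length. Of the 50-base windows of their transcripts, 20.2% of those of Myh6 and 15.6% of those of Myh7 occur in another gene, nearly all in each other, so reads from those stretches may have been placed in either gene or dropped. Myh7 also shares exon bases with 3 antisense genes, 523 with Gm31251 (6.07% of its exon length), 484 with Mhrt (5.62%) and 142 with Gm29015 (1.65%). The libraries did not keep strand, so reads of these stretches cannot be told apart. Mhrt, a noncoding RNA of the myosin locus with a cardioprotective role described in mouse, fell in DTR_PBS hearts. It averaged 8.44 ± 6.83 CPM in DTR_PYR hearts, 4.62 ± 2.63 in DTR_PBS hearts, 13.4 ± 6.17 in WT_PYR hearts and 18.6 ± 7.35 in WT_PBS hearts (SD, n = 6 each), and its log2 fold change was -2.02 (SE 0.44, adjusted p = 0.000742) in DTR_PBS against WT_PBS. In DTR_PYR 6, the heart with the highest Myh7, Mhrt was at 5.77 CPM. It was at 5.15, 1.48 and 4.29 CPM in DTR_PYR 1 to 3 and at 15.6 and 18.4 CPM in DTR_PYR 4 and 5.

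The ratio of Myh6 to Myh7 within a library was lower in injured hearts without drug. Counts were divided by exon length before the ratio was taken, which sets its level and not its differences. On the log2 scale it ran from 3.12 to 6.87 in DTR_PYR hearts, 3.55 to 5.28 in DTR_PBS hearts, 5.70 to 7.54 in WT_PYR hearts and 6.18 to 7.50 in WT_PBS hearts. No DTR_PBS heart overlapped a WT_PBS heart. The means were 4.44 ± 0.61 in DTR_PBS hearts and 6.73 ± 0.51 in WT_PBS hearts (SD, n = 6 each), a difference of -2.30 (exact permutation test, two-sided, p = 0.00216, the smallest that 6 against 6 can give; adjusted p = 0.0152 over the 28 single-value tests). This is a ratio 0.203 times that of WT_PBS. Within the libraries whose animal tag ends in U the difference was -2.77, and within those ending in V it was -2.17.

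With the drug, the Myh6 to Myh7 ratio averaged 4.94 ± 1.58 in DTR_PYR hearts and 6.58 ± 0.75 in WT_PYR hearts (SD, n = 6 each), and the difference of -1.64 did not pass after adjustment (exact permutation p = 0.0455, adjusted p = 0.127). DTR_PYR 4 and 5 had ratios of 6.87 and 6.81, in the WT range, and DTR_PYR 6 had 3.12, the lowest of all 24 hearts. Leaving out DTR_PYR 4 alone gave -2.02, past the threshold (exact permutation, adjusted p = 0.0471). Without all 3 of these libraries the difference was -2.30 (exact permutation, adjusted p = 0.0370). As a share per length, Myh7 made up 4.58 ± 3.78% of Myh6 plus Myh7 in DTR_PYR hearts, 4.70 ± 1.88% in DTR_PBS hearts, 1.15 ± 0.571% in WT_PYR hearts and 0.977 ± 0.319% in WT_PBS hearts. Myh6 thus remained the main myosin of the pair in each of the 24 libraries, where the highest Myh7 share was 10.3%.

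**Figure D3:**
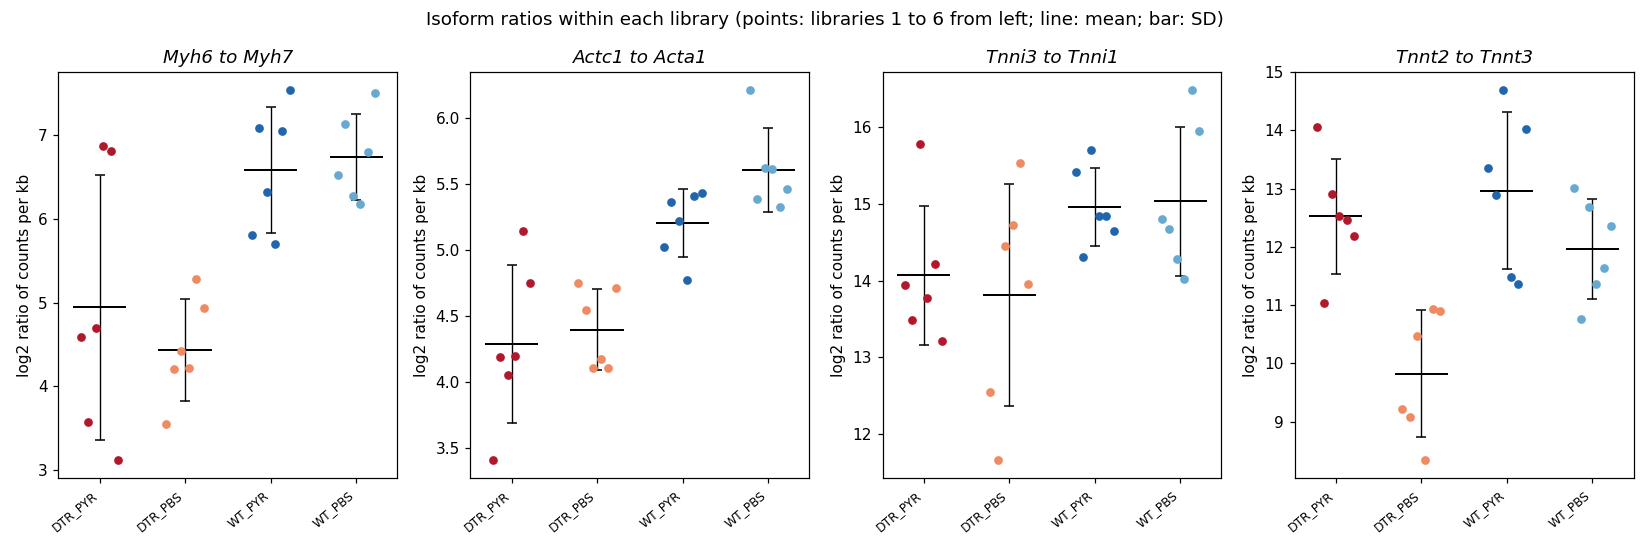
Log2 ratio of length-scaled counts (y axis) within each library for 4 isoform pairs, by group (x axis). Points are libraries 1 to 6 from left to right, lines are means and bars are SD. For Myh6 to Myh7 and Actc1 to Acta1 all DTR_PBS hearts lie below all WT_PBS hearts, and DTR_PYR 4 and 5 lie at 6.87 and 6.81 in the first panel.

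Tnnt2 encodes cardiac troponin T, which anchors the troponin complex to tropomyosin (chromosome 1, 135836354 to 135852260, plus strand). It had 4543, 7328 and 9109 CPM as lowest, median and highest value in DTR_PYR hearts, 3088, 5491 and 6819 CPM in DTR_PBS hearts, 5838, 8557 and 9211 CPM in WT_PYR hearts and 7651, 7872 and 8321 CPM in WT_PBS hearts. All DTR_PBS hearts were below all WT_PBS hearts, while DTR_PYR and WT_PYR overlapped. Its log2 fold change was -0.63 (SE 0.21, adjusted p = 0.0175) in DTR_PBS against WT_PBS and -0.21 (SE 0.21, adjusted p = 0.536) in DTR_PYR against WT_PYR. In DTR_PYR against DTR_PBS it was 0.45 (SE 0.21, unadjusted p = 0.0390, adjusted p = 0.236).

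Tnnc1 encodes the calcium-binding subunit of slow muscle and heart (chromosome 14, 31208312 to 31211729, plus strand). It averaged 1777 ± 312 CPM in DTR_PYR hearts, 1382 ± 510 in DTR_PBS hearts, 2038 ± 122 in WT_PYR hearts and 2040.2 ± 197 in WT_PBS hearts (SD, n = 6 each). DTR_PBS 1 and 2 were lowest, at 825 and 797 CPM, and only DTR_PBS 6, at 1988 CPM, reached into the WT_PBS range, whose lowest heart had 1771 CPM. The log2 fold change in DTR_PBS against WT_PBS was -0.56 (SE 0.20, adjusted p = 0.0222), and leaving out DTR_PBS 1 or DTR_PBS 2 ended the call (-0.45, adjusted p = 0.0567, and -0.44, adjusted p = 0.0620). In DTR_PYR against WT_PYR it was -0.20 (SE 0.19, adjusted p = 0.524).

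Tnni3 encodes the adult cardiac inhibitory subunit (chromosome 7, 4518305 to 4524229, minus strand). It averaged 5265 ± 1539 CPM in DTR_PYR hearts, 3707 ± 1722 in DTR_PBS hearts, 6049 ± 365 in WT_PYR hearts and 5790.0 ± 714 in WT_PBS hearts (SD, n = 6 each). The difference of DTR_PBS from WT_PBS just missed the threshold, with a log2 fold change of -0.64 (SE 0.26, adjusted p = 0.0503), and it passed in a DESeq2 Wald test (adjusted p = 0.0292) and in limma voom (adjusted p = 0.0235). In edgeR it passed when any 1 of DTR_PBS 3, 5 and 6 or WT_PBS 6 was left out (adjusted p from 0.0205 to 0.0394). It did not pass when any other library was left out, with a log2 fold change as small as -0.47 and an adjusted p up to 0.124. Under total-count scaling in edgeR the difference was -0.35 (adjusted p = 0.204). Its groups overlapped through WT_PBS 6 at 4437 CPM. Tnni3 shares 86 exon bases with Dnaaf3 on the same strand, 4.17% of its exon length.

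Tnni1 encodes the slow skeletal and fetal cardiac inhibitory subunit (chromosome 1, 135779434 to 135810989, plus strand) and was barely detected. Its reads summed to 33 over the 6 DTR_PYR hearts, 43 over the DTR_PBS hearts, 18 over the WT_PYR hearts and 28 over the WT_PBS hearts. The highest library was DTR_PYR 6 at 1.28 CPM, with 8 reads, followed by DTR_PBS 2 at 1.06 CPM. DTR_PYR 6 was thus the highest of the 24 hearts for Tnni1 as well as Myh7, although 8 reads leave its Tnni1 level imprecise. The log2 ratio of Tnni3 to Tnni1, with 0.5 counts added because some libraries had 0 reads of Tnni1, was 14.07 ± 0.91 in DTR_PYR hearts, 13.81 ± 1.45 in DTR_PBS hearts, 14.96 ± 0.51 in WT_PYR hearts and 15.03 ± 0.97 in WT_PBS hearts. With all libraries no contrast of this ratio passed: DTR_PBS against WT_PBS differed by -1.22 (exact permutation p = 0.119, adjusted p = 0.238) and DTR_PYR against WT_PYR by -0.89 (exact permutation p = 0.0671, adjusted p = 0.162). Leaving out DTR_PYR 3 alone gave -1.23 in DTR_PYR against WT_PYR, past the threshold (exact permutation, adjusted p = 0.0242). DTR_PYR 3 had 0 reads of Tnni1 in 2.39 M counts, so its ratio of 15.78 is set by the added 0.5 counts. At this depth the ratio rests on few Tnni1 reads in each library.

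Tnnt3, fast skeletal troponin T (chromosome 7, 142498836 to 142516009, plus strand), was also near the limit of detection. It had 14 reads over the 6 DTR_PYR hearts, 93 over the DTR_PBS hearts, 12 over the WT_PYR hearts and 28 over the WT_PBS hearts. In CPM the lowest, median and highest were 0, 0.234 and 0.320 in DTR_PYR hearts, 0.625, 0.959 and 2.66 in DTR_PBS hearts, 0, 0.129 and 0.585 in WT_PYR hearts and 0.179, 0.354 and 0.815 in WT_PBS hearts. All DTR_PYR hearts were below all DTR_PBS hearts, while DTR_PBS and WT_PBS overlapped. The log2 fold change was 1.56 (SE 0.56, adjusted p = 0.0269) in DTR_PBS against WT_PBS and lost its call when any 1 of WT_PBS 1, 3 and 6 or DTR_PBS 2 and 4 was left out (adjusted p from 0.0523 to 0.0750). In DTR_PYR against DTR_PBS it was -2.36 (SE 0.63, unadjusted p = 0.000903, adjusted p = 0.131), and a DESeq2 Wald test and limma voom each called it, with 1.57% and 11.4% of all genes. Tnnt3 passed the filter with 6 DTR_PBS and 0 DTR_PYR libraries above 0.5 CPM. The filter thus favoured this difference, and the calls and the lack of overlap are given as values only.

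The log2 ratio of Tnnt2 to Tnnt3, again with 0.5 counts added, was 12.53 ± 0.99 in DTR_PYR hearts, 9.82 ± 1.09 in DTR_PBS hearts, 12.96 ± 1.34 in WT_PYR hearts and 11.97 ± 0.86 in WT_PBS hearts (SD, n = 6 each). It was higher in DTR_PYR than in DTR_PBS by 2.70 (exact permutation p = 0.00216, adjusted p = 0.0152), with no overlap, and lower in DTR_PBS than in WT_PBS (a difference of -2.15, exact permutation p = 0.00649, adjusted p = 0.0303). Without DTR_PYR 4, 5 and 6 the drug difference in injured hearts was 2.84 (exact permutation, adjusted p = 0.0417). DTR_PYR 1 and 3 had 0 reads of Tnnt3, so their ratios of 14.06 and 12.90 are set by the added 0.5 counts. DTR_PYR 2 had 1 read, so the value without DTR_PYR 4, 5 and 6 rests on 1 Tnnt3 read of that group. Tnnt3 had also passed the low-count filter through DTR_PBS, the group where it was highest. The comparison with DTR_PBS is therefore given as values at the limit of detection. A sum of 9 other fast skeletal markers was not higher in DTR_PBS hearts and came to 0.888 to 3.20 CPM in DTR_PYR hearts, 0.887 to 3.14 CPM in DTR_PBS hearts, 2.06 to 3.93 CPM in WT_PYR hearts and 2.44 to 5.12 CPM in WT_PBS hearts. Among them Tnnc2, fast skeletal troponin C, had 0 reads in every library. The filter passed 2 of the 9, Tnni2, fast skeletal troponin I, which differed by -0.0022 in DTR_PBS against WT_PBS (adjusted p = 0.997), and Atp2a1, the fast calcium pump, which fell (-1.21, adjusted p = 0.0418).

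Actc1 encodes cardiac alpha-actin, the main actin of the adult cardiac thin filament (chromosome 2, 114047282 to 114053548, minus strand). It had 6846, 10719 and 13187 CPM as lowest, median and highest value in DTR_PYR hearts, 5370, 7693 and 12128 CPM in DTR_PBS hearts, 11771, 12207 and 17524 CPM in WT_PYR hearts and 10450, 11027 and 12241 CPM in WT_PBS hearts. Both injured groups overlapped their WT groups; DTR_PBS 3 and 6 lay within the WT_PBS range and the other 4 DTR_PBS hearts lay below it. Neither difference passed: the log2 fold change was -0.39 (SE 0.22, adjusted p = 0.150) in DTR_PBS against WT_PBS and -0.30 (SE 0.22, adjusted p = 0.371) in DTR_PYR against WT_PYR. DTR_PYR 6, with the highest Myh7, had the lowest Actc1 of its group.

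Acta1 encodes skeletal alpha-actin, which the fetal and stressed heart also makes (chromosome 8, 123891769 to 123894751, minus strand, in GENCODE vM21). It had 241, 545 and 1119 CPM as lowest, median and highest value in DTR_PYR hearts, 219, 397 and 662 CPM in DTR_PBS hearts, 269, 299.5 and 511 CPM in WT_PYR hearts and 148, 221 and 277 CPM in WT_PBS hearts. In DTR_PBS hearts libraries 3 to 6 were above every WT_PBS heart and libraries 1 and 2, both at 219 CPM, were not. The log2 fold change was 0.84 (SE 0.31, adjusted p = 0.0297) in DTR_PBS against WT_PBS, and the call ended when any 1 of WT_PBS 1 and 3 or DTR_PBS 3 and 5 was left out (adjusted p from 0.0522 to 0.103). In DTR_PYR against WT_PYR it was 0.76 (SE 0.31, adjusted p = 0.0998). Acta1 was also the 1 gene of the 9 with an unadjusted p under 0.05 for the drug in uninjured hearts, where WT_PYR against WT_PBS differed by 0.63 (SE 0.31, unadjusted p = 0.0483, adjusted p = 0.998). Of its 50-base windows 2.02% occur in other actin genes or pseudogenes, among them Actb.

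The Actc1 to Acta1 ratio was lower in injured hearts with and without drug. On the log2 scale it ran from 3.41 to 5.14 in DTR_PYR hearts, 4.10 to 4.75 in DTR_PBS hearts, 4.77 to 5.43 in WT_PYR hearts and 5.32 to 6.21 in WT_PBS hearts. The means were 4.40 ± 0.31 in DTR_PBS hearts and 5.60 ± 0.32 in WT_PBS hearts (SD, n = 6 each), a difference of -1.21 with no overlap (exact permutation p = 0.00216, adjusted p = 0.0152). DTR_PYR hearts averaged 4.29 ± 0.60 and WT_PYR hearts 5.20 ± 0.26, a difference of -0.91 (exact permutation p = 0.00866, adjusted p = 0.0303), where DTR_PYR 5 overlapped the WT_PYR range at 5.14. Leaving out any 1 of WT_PYR 2, 3, 5 and 6 or DTR_PYR 1 ended this call (adjusted p from 0.0530 to 0.0606), and without DTR_PYR 4, 5 and 6 the difference was -1.32 (adjusted p = 0.0417).

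Within the tag letters the Actc1 to Acta1 difference was -1.17 in U and -1.18 in V for DTR_PBS against WT_PBS, and -1.36 in U and -0.76 in V for DTR_PYR against WT_PYR. As a share per length, Acta1 made up 5.17 ± 2.02% of the actin pair in DTR_PYR hearts, 4.61 ± 0.912% in DTR_PBS hearts, 2.68 ± 0.494% in WT_PYR hearts and 2.05 ± 0.395% in WT_PBS hearts. Unlike the level of Acta1, which DTR_PBS 1 and 2 shared with WT_PBS hearts, the ratio of DTR_PBS 1 and 2, at 4.75 and 4.54, lay below every WT_PBS heart. In these 2 libraries Actc1 was low, at 6185 and 5370 CPM.

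**Figure D4:**
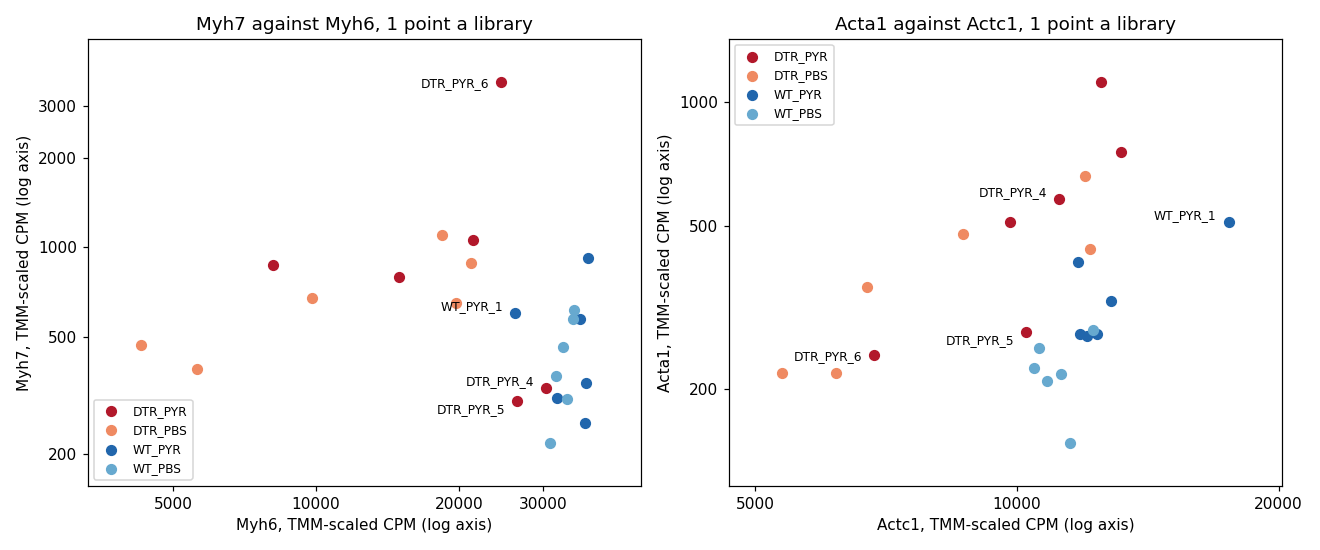
Level of the second isoform (y axis) against the first (x axis) in CPM, both on log axes, with 1 point per library coloured by group. In the Myh6 and Myh7 panel, DTR_PYR 4 and 5 lie among the WT hearts and DTR_PYR 6 lies above all others at 3614 CPM of Myh7; in the Actc1 and Acta1 panel, DTR_PBS hearts are to the left of or above the WT_PBS hearts.

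The promoters of the actin pair are shown because the ratio of these genes was lower in both injured groups. Each line gives the 250 bases before the RefSeq start on GRCm38.p6, 5′ to 3′ on the gene's strand, with matches to the CArG box (the site of serum response factor), CATTCC (the M-CAT site of TEAD factors) and TATAAA in capitals, searched on both strands.
Acta1 (chr8:123894776-123895025, minus strand): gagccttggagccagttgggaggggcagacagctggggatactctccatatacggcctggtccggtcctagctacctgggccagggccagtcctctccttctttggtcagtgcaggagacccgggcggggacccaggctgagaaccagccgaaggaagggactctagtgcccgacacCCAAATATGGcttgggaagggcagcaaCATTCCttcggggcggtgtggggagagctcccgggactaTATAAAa
Actc1 (chr2:114052876-114053125, minus strand): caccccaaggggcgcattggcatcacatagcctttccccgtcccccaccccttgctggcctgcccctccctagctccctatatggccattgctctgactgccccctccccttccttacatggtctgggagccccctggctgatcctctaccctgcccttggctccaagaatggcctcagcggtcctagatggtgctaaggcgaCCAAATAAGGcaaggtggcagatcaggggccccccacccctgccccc
Both windows hold 1 CArG box, which starts 73 bases before the start of Acta1 and 47 bases before that of Actc1, and Acta1 also holds 1 CATTCC and 1 TATAAA. The distances depend on the start used. The Actc1 window lies inside the gene span given above, and the Acta1 window does not adjoin the span given above. Of 32851 promoter windows of the same length, 1.47% held a CArG box, 12.6% held CATTCC and 12.4% held TATAAA. These are matches of letters only, and no binding was measured. Of the 10 genes, 9 had a promoter in the RefSeq table and Tnnt3 did not.

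The pools of isoforms were compared as values only. The log2 ratio of the summed myosins (Myh6, Myh7 and Myh7b) to the summed actins (Actc1 and Acta1), per length, was -1.17 ± 0.82 in DTR_PYR hearts, -1.60 ± 0.57 in DTR_PBS hearts, -0.68 ± 0.41 in WT_PYR hearts and -0.49 ± 0.08 in WT_PBS hearts (SD, n = 6 each). Every DTR_PBS heart was below every WT_PBS heart, so the myosin sum was lower relative to the actin sum in each of them. The troponin I pool against the troponin T pool was 1.47 ± 0.17 in DTR_PYR hearts, 1.34 ± 0.34 in DTR_PBS hearts, 1.5 ± 0.30 in WT_PYR hearts and 1.44 ± 0.18 in WT_PBS hearts, and all 4 ranges overlapped. Per length of exon in WT_PBS hearts, Actc1 was highest at 6886 ± 412 CPM per kb, then Myh6 at 4937 ± 226, Tnni3 at 2807 ± 346, Tnnc1 at 1960 ± 189, Tnnt2 at 1024 ± 30.7, Acta1 at 144 ± 28.6, Myh7 at 49.2 ± 17.9 and Myh7b at 19.97 ± 6.49. Neighbours in this order had ranges that did not overlap, except Tnni3 with Tnnc1 and Myh7 with Myh7b. The levels and the order depend on the length used. Over the longest transcript Tnni3 stood at 6349 CPM per kb, above Myh6 at 5432. Tnnc1 stood at 2830 and Tnnt2 at 2384 CPM per kb.

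Across the 24 libraries the genes differed in how alike they ran. The measure was the root mean square difference of log2 CPM after centring each gene on its mean, which describes these libraries only and includes the difference between groups. It was smallest for Actc1 and Tnnc1 (0.21), Tnnc1 and Tnnt2 (0.21) and Tnni3 and Tnnt2 (0.24). The largest difference was between Myh7 and Myh7b (1.99), followed by Acta1 and Myh7b (1.90). The measure is not divided by a gene's own spread, so it depends on spread as well as on pattern. The SD of log2 CPM over the 24 libraries was 0.39 for Actc1, 0.41 for Tnnc1, 0.43 for Tnnt2, 0.57 for Tnni3 and 1.58 for Myh7b. Myh6 lay nearer to Tnni3 (0.43) than to its neighbour Myh7 (1.33). Actc1 was nearer to Acta1 (0.66) than Myh6 was to Myh7.

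**Figure D5:**
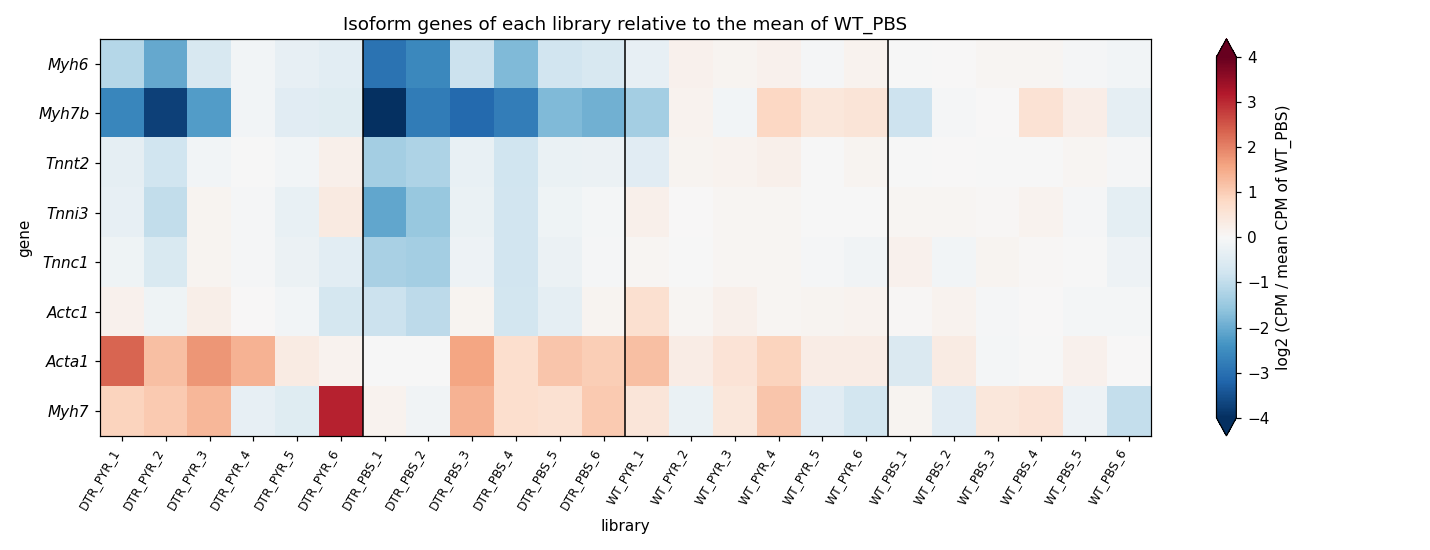
Log2 ratio of each library's CPM to the mean of WT_PBS (colour, which saturates at -4 and 4) for the 8 abundant genes (rows) in all 24 libraries (columns). Myh7b is the darkest blue row in DTR_PBS, reaching -5.10 in DTR_PBS 1, and Myh7b of DTR_PYR 4 to 6 lies close to the WT hearts. Myh7 of DTR_PYR 6 stands at 3.09, and Acta1 is above 0 in all 6 DTR_PYR hearts and in all 6 WT_PYR hearts.

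Among the 10205 tested genes averaging 5 CPM or more, the ones that ran most like each gene over the 24 libraries by the same measure were these. Hrc, a calcium-binding protein of the sarcoplasmic reticulum, was nearest to Myh6 (0.18), followed by Grb14 (0.20) and Adhfe1 (0.21). Lrg1 (0.47), a secreted glycoprotein, and Clu (0.55) were among the nearest to Myh7, whose own SD was 0.88. Rnf207 (0.44), a cardiac ubiquitin ligase, Asb10 (0.49) and Atcayos (0.51) were nearest to Myh7b. Kif13a, a kinesin motor, was nearest to Tnnt2 (0.11), followed by Limch1 (0.13) and the M-band gene Myom1 (0.15). Nearest to Tnni3 were 0610009O20Rik (0.12), Ndufb10 (0.13), a subunit of respiratory complex I, and Aldoa (0.14), a glycolytic enzyme. Ankrd40 (0.14), Mtg1 (0.15) and Bola3 (0.15) were nearest to Tnnc1, and Poldip2 (0.19), Mrpl49 (0.20) and Eral1 (0.20) to Actc1. For Acta1 the nearest were Cd3eap (0.44), Cryab (0.44), a small heat shock protein, and Mybpc2 (0.45), the fast form of myosin-binding protein C. Tnnt3, near the limit of detection, had no gene nearer than Ripk2 (0.75), followed by Slc29a3 (0.80) and Ing3 (0.81).

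No gene of the 9 passed the edgeR test for pyridostigmine. In DTR_PYR against DTR_PBS, 0 of 9 were called, where 0% of all tested genes were called and 2991 had an unadjusted p under 0.05. Unadjusted p was under 0.05 for 3 of the 9, Myh7b, Tnnt2 and Tnnt3, and a DESeq2 Wald test (1.57% of all genes) and limma voom (11.4%) each called 1, Tnnt3. Groups without overlap were found in 0.375% of tested genes, 0.162% higher and 0.214% lower in DTR_PYR, and in 1 of the 9, Tnnt3, which had passed the filter through DTR_PBS. The median of the 9 was 0.51, against -0.01 over all tested genes, and 8 of the 9 had a positive value. The same DTR_PBS hearts serve as one side of this comparison and of the injury comparison without drug, so the opposite signs of both are not independent. Myh6 differed by 0.67 (SE 0.33, adjusted p = 0.269), and by 0.17 without DTR_PYR 4, 5 and 6. Leaving out DTR_PYR 2 alone gave 2 calls, Myh7b (1.76, adjusted p = 0.0177) and Tnnt3 (-2.41, adjusted p = 0.0210); in that fit 2395 of all 15352 tested genes were called (15.6%), against 0 with DTR_PYR 2.

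In uninjured hearts, WT_PYR against WT_PBS, 0 of 9 were called by edgeR, 0 by DESeq2 and 0 by limma voom. In edgeR 1 had an unadjusted p under 0.05 (Acta1, above), as did 481 of all 15456 tested genes, and 0% of all tested genes were called. None of the 9 had groups without overlap, against 0.278% of all tested genes, 0.0906% higher and 0.188% lower. The Actc1 to Acta1 ratio differed by -0.40 in WT_PYR hearts against WT_PBS hearts (exact permutation p = 0.0260, adjusted p = 0.0808), and by -0.46 without WT_PBS 5, past the threshold (adjusted p = 0.0337). The difference between the drug's values in injured and uninjured hearts was tested for each gene and ratio. In edgeR, unadjusted p was under 0.05 for 0 of the 9 genes and for 1231 of all 15456 tested genes. Myh7b stood at 1.33 (edgeR, SE 0.68, adjusted p = 0.634). None of the 9 genes passed in edgeR, DESeq2 or limma voom, and edgeR called 0% of all tested genes. Nor did any of the 4 ratios, with adjusted p between 0.541 and 0.691 over 100000 permutations of the drug labels. A weaker injury difference under the drug was therefore not shown for these genes.

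Other genes of the same machinery were counted from lists, in DTR_PBS against WT_PBS first, with the 42.9% background above. Of the 4 other actins tested, 3 rose and 0 fell: Actb (log2 fold change 1.71) and Actg1 (1.01), the cytoplasmic actins, and Acta2 (1.39), the smooth muscle actin of vessels and myofibroblasts. Acta2 averaged 175 ± 109 CPM in DTR_PYR hearts, 218 ± 89.9 in DTR_PBS hearts, 96.6 ± 20.2 in WT_PYR hearts and 83.1 ± 9.81 in WT_PBS hearts. It was at 229, 270 and 313 CPM in DTR_PYR 1 to 3 and at 82.8, 84.2 and 68.7 CPM in DTR_PYR 4 to 6. In DTR_PYR against WT_PYR, where 12.2% of tested genes were called, Actb alone of the 4 rose (1.18). Of 4 nonmuscle and smooth muscle myosins, Myh9 rose (1.07) and Myh14 (-1.93) and Myh11 (-0.88) fell in DTR_PBS hearts, and 0 of 4 were called under the drug. Fibroblast and macrophage markers rose in the same hearts, and their part in the rise of these actins and of Myh9 was not tested.

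Among 13 tropomyosins and regulators of thin filament length, 3 rose and 2 fell in DTR_PBS hearts. Tpm3 (1.47) and Tpm4 (1.28), which nonmuscle cells also make, rose, and Tpm1 (-0.76), the main cardiac tropomyosin, and Tmod4 (-2.27), a cap of the thin filament's slow end, fell. Under the drug Tpm3 alone was called, up (0.96). Of 8 tested genes for myosin-binding proteins, titin and the M band, 5 fell and 0 rose, led by Myom2 (-1.34), Mybpc3 (-1.20), Myom1 (-0.70) and Obsl1 (-0.84), and under the drug Myom2 alone fell (-0.72). Of 10 genes for myosin folding and assembly, 2 rose and 4 fell in DTR_PBS hearts: the chaperones Hsp90aa1 (2.06) and Hspb1 (1.34) rose, and Unc45b (-0.82), the muscle myosin chaperone, and Smyd1 (-0.74), a muscle methyltransferase, were among those that fell. Under the drug the same chaperones were called, Hsp90aa1 at 1.82 and Hspb1 at 1.19.

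Thyroid hormone promotes Myh6 and represses Myh7 in rodent ventricle. Of 13 tested genes of thyroid hormone signalling, 2 rose and 4 fell in DTR_PBS hearts, a share near the 42.9% background: the receptor Thra (-1.31) and its partners Rxra (-0.95) and Rxrg (-1.58) fell, and Dio2 (2.71), which makes the active hormone, rose. Thra averaged 93.2 ± 28.2 CPM in DTR_PYR hearts, 64.9 ± 22.1 in DTR_PBS hearts, 181 ± 27.7 in WT_PYR hearts and 161 ± 39.5 in WT_PBS hearts (SD, n = 6 each). Under the drug Thra (-0.95), Rxra (-0.64) and Dio2 (2.48) were called. Dio2 stayed low, at 2.99 ± 2.50 CPM in DTR_PYR hearts, 3.71 ± 1.77 in DTR_PBS hearts, 0.480 ± 0.354 in WT_PYR hearts and 0.613 ± 0.449 in WT_PBS hearts. Its level was 4.42, 3.55 and 7.02 CPM in DTR_PYR 1 to 3 and 0.756, 1.54 and 0.641 CPM in DTR_PYR 4 to 6.

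Of 32 transcriptional regulators of sarcomere isoforms, 6 rose and 7 fell in DTR_PBS hearts, a share near the 42.9% background. Rcan1, a target and regulator of calcineurin, rose most clearly (2.53, adjusted p = 3.73e-05), and Esrra (-0.97), a nuclear receptor of oxidative metabolism, and Mhrt, given above, fell. Eya4, a transcriptional cofactor, rose (3.0) on 150 reads in all libraries. Under the drug Rcan1 (2.05) and Hdac9 (-0.97), a repressor of MEF2 factors, were called. Rcan1 was at 870, 491 and 665 CPM in DTR_PYR 1 to 3 and at 104, 119 and 157 CPM in DTR_PYR 4 to 6. Of the other troponins, Tnnt1, slow skeletal troponin T, fell in DTR_PBS hearts (-1.03), with 10.5 ± 1.82 CPM in DTR_PYR hearts, 7.40 ± 2.27 in DTR_PBS hearts, 12.8 ± 3.11 in WT_PYR hearts and 15.2 ± 3.0 in WT_PBS hearts. Of 7 further muscle myosin heavy chains only Myh8, a perinatal form, passed the filter, and it was not called (1.03, adjusted p = 0.0992). No gene of these lists was called in DTR_PYR against DTR_PBS or in WT_PYR against WT_PBS, where edgeR called no gene at all.

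The values depend on how the libraries are scaled. Scaling by total counts in place of the trimmed mean moved the median of all tested genes by 0.38 in DTR_PBS against WT_PBS and by 0.15 in DTR_PYR against WT_PYR. Under it Myh6 (-1.05), Myh7b (-2.32), Tnnt3 (1.95) and Acta1 (1.15) kept their calls in DTR_PBS hearts, and Tnnt2 (-0.31, adjusted p = 0.130) and Tnnc1 (-0.25, adjusted p = 0.213) did not. Myh7 (1.36) and Acta1 (0.96) were called in DTR_PYR against WT_PYR under total counts, with 14.7% of all genes. Within libraries whose animal tag ends in V, with 4 DTR_PBS and 2 WT_PBS hearts, Myh7b alone was called (-2.10, adjusted p = 0.0101; 17.3% of all genes), and within U, with 2 DTR_PBS and 4 WT_PBS hearts, Myh6 (-2.21), Myh7b (-3.92), Tnnt2, Tnni3, Tnnc1 and Actc1 were called, all down, with 40.1% of all genes. Acta1 was not called within either (0.38 in U, 1.09 in V). What the letter stands for is not given in the labels.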

How the data were processed

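RNA-seq was measured in 24 ventricular apexes, 6 in each of 4 groups taken from the sample titles and treatment labels. Reads were single-end, polyadenylated and without strand, per the labels' protocols. The authors deposited raw HTSeq counts per gene in an unfiltered table, used here; GRCm38, HTSeq, TopHat, TopHat2 version 2.1.1, Bowtie2, edgeR and DESeq are listed in the submitters' processing notes, with no role or order. Other deposited tables were not used. All 24 value columns were mapped to samples and no pair of libraries was identical. The labels give each library its own animal tag.

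Totals ran from 1.88 M to 37.8 M counts, so a gene with few reads is measured less precisely in the shallow libraries. Genes above 0.5 CPM in at least 6 libraries, 15456 in all, were fitted with edgeR 4.0.16 (TMM scaling, quasi-likelihood test, 4 group coefficients, R 4.3.3). P-values were adjusted by Benjamini-Hochberg over all 15456 genes for each of 5 contrasts and called under 0.05. Log2 ratios within libraries, after division by GENCODE vM21 exon length, were compared over all 924 arrangements of the samples (exact permutation test, two-sided), adjusted over a family of 28 (7 measures by 4 contrasts), which includes the 3 measures over all members given as values only. The ratio differences between drug contrasts used 100000 permutations, adjusted over 4. A count of 0.5 was added to both genes of the Tnni1 and Tnnt3 ratios because libraries with 0 reads had no ratio otherwise; this had been listed as an alternative. The edgeR step was tested on simulated data.

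The 10 genes and the gene lists were chosen with earlier results of these data known. The text names all 10 genes, up to 4 called genes of each list by p with Mhrt and Acta2, marker genes, and the 3 genes nearest in pattern to each tested member, of which 1 is not reported here; Hbegf was added after the data were seen. Alternatives were other scalings, no filter, DESeq2 1.42.0, limma 3.58.1 voom, fits of 2 groups, the tag letter, mitochondrial genes left out, each library left out, and, added after the data were seen, DTR_PYR 4 to 6 left out together. Acta1 lacks a symbol in the table. RefSeq promoters and microRNAs were matched by name; figures used Python 3.11.15 and matplotlib 3.10.9.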

Additional observations from a re-analysis of the deposited data

Results flagged for a closer look

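Of 68 sets of 6 libraries checked (each abundant or detected gene and each ratio, by group), 7 held a library whose gap to its nearest neighbour exceeded Dixon's critical value of 0.625 times the range, where chance gives about 1 in 20. Myh7 stood at 3614 CPM in DTR_PYR 6, with the next DTR_PYR heart at 1058 CPM. The 10 genes took 3.39% of the counts of DTR_PYR 2, with the next lowest DTR_PYR heart at 4.78%. Tnnt3 stood at 2.66 CPM in DTR_PBS 4, on 6 reads in the shallowest library of the 24, with the next DTR_PBS heart at 1.24 CPM. WT_PYR 1 was far from its group in 3 measures: Actc1 at 17524 CPM with the next heart at 12825 CPM, the log2 myosin to actin pool ratio at -1.49 with the next lowest at -0.66, and the log2 troponin I to troponin T pool ratio at 2.11 with the next highest at 1.46. The same heart had the lowest Myh6, Tnnt2 and Myh7b of WT_PYR and the highest Acta1 and Tnni3. The log2 Actc1 to Acta1 ratio of WT_PBS 1 was 6.21, with the next WT_PBS heart at 5.62.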

How the results depend on the processing

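No paired analysis was possible because the replicate numbers follow accession order and pair no samples. Of the single-gene values under settings other than leaving out 1 library, 429 kept direction and side of the threshold, 21 newly passed, 12 no longer passed and 19 changed sign. Of the counts and ratios, 128 kept theirs, 10 shifted in size beyond the margin set for them, 6 changed sign, 1 newly passed and 1 no longer passed. The causes were not tested.

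In DTR_PYR against WT_PYR, where none of the 9 genes was called, total-count scaling called 2 (Myh7 and Acta1; 14.7% of all genes), the DESeq2 Wald test 1 (Myh7; 17.1%), the tag letter as a covariate 2 (Myh6 and Myh7b; 18.9%), U libraries alone 3 (29.7%), and DTR_PYR 4, 5 and 6 left out 3 (33%). In DTR_PBS against WT_PBS the 6 calls became 3 without a filter (22.2% of all genes) and 1 within V (17.3%). In DTR_PYR against DTR_PBS, DESeq2 (1.57%) and limma voom (11.4%) each called 1 (Tnnt3, which had passed the filter through DTR_PBS), and V libraries 1 (Myh7b, 4.28%). Leaving out 1 library gave 0 to 2 calls in DTR_PYR against WT_PYR, where 4.88 to 17.6% of all genes were called. It gave 0 to 2 in DTR_PYR against DTR_PBS (0 to 15.6% of all genes) and 4 to 7 in DTR_PBS against WT_PBS (37 to 44.2%).

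Values that changed sign were small or rested on few libraries. Tnnc1 in WT_PYR against WT_PBS was 0.0060 with DESeq2 size factors, 0.059 with total counts, 0.0016 without a filter, 0.0060 in DESeq2, 0.0086 in voom, 0.015 in the fit of 2 groups, 0.0077 without mitochondrial genes and 0.096 within V. Within U, Myh6 was -0.014, Tnnt2 -0.027 and Tnni3 -0.00027 in that contrast. Tnnt3 in DTR_PYR against WT_PYR was 0.33 in voom and 0.26 with the tag letter. The drug-by-injury difference of Actc1 was -0.045 with total counts and -0.14 within V, and that of Acta1 was 0.79 within U.

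Without DTR_PYR 4, 5 and 6, Myh7b in DTR_PYR against DTR_PBS was -0.12 and its drug-by-injury difference -0.33, and that of Acta1 was 0.37. In the same setting the log2 Myh6 to Myh7 ratio differed by -2.30 in DTR_PYR against WT_PYR, now past the threshold, and by -0.15 in DTR_PYR against DTR_PBS. The myosin to actin pool ratio differed by -0.24 in DTR_PYR against DTR_PBS, the share of counts of the 10 genes by -1.43 percentage points in DTR_PYR against WT_PYR, and the Actc1 to Acta1 drug-by-injury difference was -0.11. Within V the Actc1 to Acta1 ratio differed by 0.17 in DTR_PYR against DTR_PBS. As shares in percent with nothing added, Tnni3 of the troponin I pair differed by 0.00015 in WT_PYR against WT_PBS and Tnnt2 of the troponin T pair by 0.0011 in DTR_PYR against WT_PYR.

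Leaving out 1 library moved these values. In the drug-by-injury difference, Acta1 ran from -0.38 to 0.13, Actc1 from -0.011 to 0.22, Myh7 from -0.29 to 0.77 and the Tnni3 to Tnni1 ratio from -0.10 to 0.67. In DTR_PYR against DTR_PBS, Myh7 ran from -0.047 to 0.94, the Actc1 to Acta1 ratio from -0.28 to 0.070 and the Tnni3 to Tnni1 ratio from -0.18 to 0.60. In DTR_PYR against WT_PYR, Tnnt3 ran from -0.33 to 0.33, Myh7 from 0.42 to 1.48, the Actc1 to Acta1 ratio from -1.08 to -0.74, the Myh6 to Myh7 ratio from -2.02 to -1.28, the Tnni3 to Tnni1 ratio from -1.23 to -0.72 and the troponin pools from -0.076 to 0.090. In WT_PYR against WT_PBS, Myh7 ran from -0.022 to 0.38, Tnnc1 from -0.039 to 0.036, Tnni3 from -0.0028 to 0.095, Tnnt2 from -0.0051 to 0.11, the Actc1 to Acta1 ratio from -0.46 to -0.28, the Myh6 to Myh7 ratio from -0.34 to 0.026, the Tnni3 to Tnni1 ratio from -0.28 to 0.22 and the troponin pools from -0.070 to 0.090. In DTR_PBS against WT_PBS, the share of counts of the 10 genes ran from -2.08 to -1.51 percentage points and the troponin pools from -0.17 to 0.017. Depth limits Tnni1 and Tnnt3 most, which had at most 49 reads in any library.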
